A study of Mus musculus with 13 samples.

Results

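Dusp1, Dusp6, Homer1, Nptx2 and Bdnf are 5 genes that neurons switch on when they fire and whose products act on signalling and synapses rather than on transcription. They were followed in whole brain hemispheres of R6/2 and wild type mice on Affymetrix MG-U74Av2 arrays, which read each gene through 1 or more sets of short probes. Every probe set that the array's annotation assigns to 1 of these genes alone was taken, which gave 7 of the 12422 probe sets of genes. Dusp6 and Homer1 had 2 each, and the other genes 1 each. The R6/2 line models Huntington's disease: its transgene is exon 1 of human huntingtin with an expanded CAG repeat.

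The 13 arrays fell into 4 groups by their titles: 3 of treated R6/2, 4 of untreated R6/2, 3 of treated wild type and 3 of untreated wild type mice. The triple treatment joined tacrine at 2.7 mg/kg per day from 5 weeks of age, moclobemide at 10 mg/kg per day and creatine at 1% (w/v) in wet mash. Tacrine blocks the breakdown of acetylcholine, moclobemide that of monoamines, and creatine is a precursor of the phosphocreatine energy store. The sample descriptions list these agents for the untreated samples too, so the titles alone decided which arrays count as treated. Harvest at 8 weeks is stated for 1 untreated wild type sample. Each description gives a lot number, but sex, any other batch and whether each array is a separate animal are not stated, so p-values measure the spread between these samples, which may be technical. The number of arrays limits the precision.

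When a neuron fires, calcium entering through NMDA receptors and voltage-gated channels activates calmodulin-dependent kinases and the Ras, MEK and ERK cascade. These switch on CREB and SRF, which start transcription of early genes within minutes. Dusp1 and Dusp6 encode phosphatases that remove the activating phosphates from MAP kinases and so end that signal. Homer1 encodes postsynaptic proteins, of which the long forms tie group I metabotropic glutamate receptors to calcium stores. Which forms the Homer1 probe sets read was not examined. Nptx2 encodes a secreted pentraxin that gathers AMPA receptors at synapses. Bdnf encodes a growth factor that acts on the receptor TrkB and reaches striatal neurons largely from the cortex.

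The promoter windows of Dusp1, Dusp6, Homer1 and Bdnf are shown. The element that CREB binds, the cAMP response element (CRE), is the best known route from calcium to such genes. Nptx2 had no window in the promoter set used, so its promoter was not searched. The sequences are those of RefSeq on GRCm38.p6, each from 250 bases before to 50 bases after an annotated start, 5′ to 3′ on the gene's strand. Capitals mark every match to the core element TGACG on either strand, in which a full TGACGTCA counts as a match on both strands.
Dusp1, chr17:26508423-26508722, minus strand: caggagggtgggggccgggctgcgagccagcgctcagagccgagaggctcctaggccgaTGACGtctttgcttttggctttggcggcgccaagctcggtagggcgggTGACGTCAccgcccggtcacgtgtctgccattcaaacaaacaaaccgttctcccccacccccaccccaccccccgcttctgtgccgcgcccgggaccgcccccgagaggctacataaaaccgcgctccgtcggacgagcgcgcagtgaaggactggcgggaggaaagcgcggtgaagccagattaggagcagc
Dusp6, chr10:99262981-99263280, plus strand: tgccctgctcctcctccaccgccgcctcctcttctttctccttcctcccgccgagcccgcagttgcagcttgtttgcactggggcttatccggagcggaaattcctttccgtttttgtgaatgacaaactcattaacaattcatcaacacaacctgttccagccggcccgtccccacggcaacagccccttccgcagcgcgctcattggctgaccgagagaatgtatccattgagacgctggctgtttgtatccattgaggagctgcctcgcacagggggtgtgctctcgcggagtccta
Homer1, chr13:93303507-93303806, plus strand: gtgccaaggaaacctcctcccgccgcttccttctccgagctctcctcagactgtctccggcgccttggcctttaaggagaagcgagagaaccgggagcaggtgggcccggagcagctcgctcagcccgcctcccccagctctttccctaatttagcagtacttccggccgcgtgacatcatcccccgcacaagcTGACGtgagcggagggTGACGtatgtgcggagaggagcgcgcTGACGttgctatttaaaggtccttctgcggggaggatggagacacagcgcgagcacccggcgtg
Bdnf, chr2:109692186-109692485, plus strand: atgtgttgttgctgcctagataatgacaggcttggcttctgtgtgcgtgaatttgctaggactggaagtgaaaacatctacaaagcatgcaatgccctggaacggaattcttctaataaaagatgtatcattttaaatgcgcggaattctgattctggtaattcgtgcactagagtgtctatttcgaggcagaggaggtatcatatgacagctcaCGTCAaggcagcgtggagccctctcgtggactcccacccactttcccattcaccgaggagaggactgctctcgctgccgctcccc
The Dusp1 window held 1 full CRE, whose first base lies at position -143 from the start, and a further core element at -191. A full CRE occurs in 1.79% of the 32851 windows of 300 bases in the RefSeq table. The first of 2 Homer1 windows held 3 core elements, at -56, -40 and -14, and the other window held none. Of 7 Bdnf windows, only the one shown held a core element, on the opposite strand at -35. At least 1 core element is in 20.8% of all windows, and 3 or more are in 1.03%. The Dusp6 window held none of the letters searched. No window of Dusp1, Dusp6, Homer1 or Bdnf held a CArG box (the SRF element) on either strand. None held an EGR element (GCGTGGGCG or GCGGGGGCG) or an AP-1 element (TGAGTCA or TGACTCA) on either strand. The CArG box, EGR and AP-1 elements occur in 1.63%, 3.47% and 5.20% of all windows. These matches describe the letters of the windows and were not tested against the array values.

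The arrays were of similar brightness, with medians of 39.6 to 45.1 on the authors' scale. Untreated R6/2 arrays 2 and 3 stood apart from the rest: on the first principal component, which took 33.9% of the variance, they scored 25.4 and 45.7, against at most 4.09 in any other array. In 66 of 66 control rows, untreated R6/2 array 2 read 1.2 times treated R6/2 array 1 (tolerance 0.05). The same ratio held in 66 rows for untreated R6/2 array 3 over treated R6/2 array 3 and for untreated R6/2 array 4 over array 1. Gene rows were counted where the first array of a pair read over 10, which gave 9385 to 9551 rows per pair. The ratio held in at most 19 of them, and control rows were not used. In 12 of 13 arrays the lot number equals the number in the title. The description of treated R6/2 array 1 instead carries the number of untreated R6/2 array 4, so whether both arrays are labelled correctly is uncertain, and their titles were followed. Values without untreated R6/2 arrays 2 and 3, or without the 2 arrays of the shared lot number, are given beside the results of the 5 genes that they move most.

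Of the 7 probe sets, 5 passed the filter on dim signal, 1 for each gene. Dusp1 (104598_at) was the brightest, with a geometric mean signal of 304 over all arrays, brighter than 90.4% of the probe sets of genes. Dusp6 (93285_at) stood at 224, Bdnf (102727_at) at 186, Nptx2 (94099_at) at 76.0 and Homer1 (104499_at) at 27.3, close to the filter at 24.9. Signals of different probe sets are not comparable as transcript amounts, so each gene is compared only with itself. The second probe sets of Dusp6 (161536_r_at, 6.25) and Homer1 (104498_at, 10.1) lay below the filter and are described separately.

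**Figure D1:**
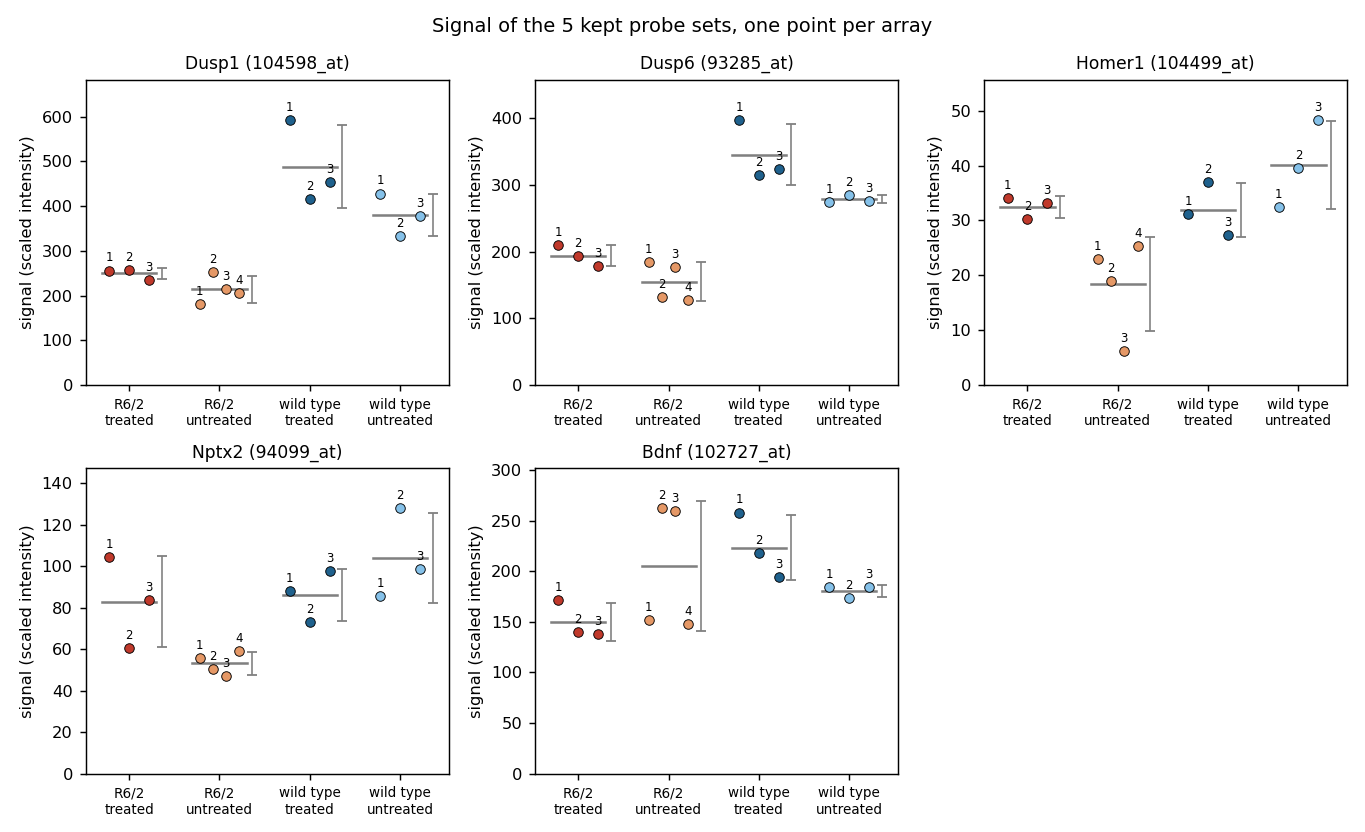
Signal of the 5 probe sets that passed the filter, in the authors' scaled intensity on a linear axis from 0, for the 3 treated R6/2, 4 untreated R6/2, 3 treated wild type and 3 untreated wild type arrays. Numbered points are arrays, grey lines are group means and grey bars are ± 1 SD. For Dusp1 and Dusp6 every R6/2 array lies below every wild type array, whereas for Homer1 and Nptx2 the untreated R6/2 arrays alone lie below all others.

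The phosphatases were lower in R6/2 brain, with or without treatment. Dusp1, a nuclear phosphatase of ERK, JNK and p38, read 255.9, 256.6 and 235.5 in the treated R6/2 arrays, 181.8, 252.7, 214.8 and 205.2 in the untreated R6/2 arrays, 593.3, 416.8 and 453.8 in the treated wild type arrays and 428.0, 333.2 and 377.1 in the untreated wild type arrays. All 7 R6/2 arrays lay below all 6 wild type arrays, and within each genotype the treated and untreated arrays overlapped. The group means were 249 ± 12 (SD, n = 3) in treated R6/2, 214 ± 29.5 (SD, n = 4) in untreated R6/2, 488 ± 93.1 (SD, n = 3) in treated wild type and 379 ± 47.4 (SD, n = 3) in untreated wild type mice. The genotype difference on the log2 scale was -0.83 ± 0.15 (SE, limma, adjusted p = 0.0051) in untreated mice. In treated mice it was -0.95 ± 0.16 (SE, adjusted p = 0.0085).

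Dusp6, a cytoplasmic phosphatase selective for ERK, read 210.5, 193.0 and 179.1 in the treated R6/2 arrays, 184.0, 131.9, 176.6 and 127.2 in the untreated R6/2 arrays, 398.2, 314.3 and 323.8 in the treated wild type arrays and 274.6, 285.7 and 276.5 in the untreated wild type arrays. Again all 7 R6/2 arrays lay below all 6 wild type arrays. Its genotype difference was -0.87 ± 0.15 (SE, adjusted p = 0.0043) in untreated and -0.83 ± 0.16 (SE, adjusted p = 0.0196) in treated mice. Averaged over treatment, the difference was -0.89 ± 0.11 (SE, adjusted p = 0.0002) for Dusp1 and -0.85 ± 0.11 (SE, adjusted p = 0.0003) for Dusp6. Of the 7453 probe sets tested, 2.37% had all R6/2 arrays below all wild type arrays.

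The calls of both phosphatases in untreated mice and on average held under every alternative run. The call in treated mice was less firm. Dusp1 was -0.97 (adjusted p = 0.0592) there without the 2 arrays of the shared lot number. Dusp6 lost its call without that pair (adjusted p = 0.0592) and without any 1 of treated R6/2 arrays 1, 2 and 3 and treated wild type arrays 1 and 3, with adjusted p between 0.0559 and 0.122 and a difference of -0.89 to -0.72 over all single arrays left out. In whole-brain RNA, fewer cells of a type and less RNA per cell cannot be told apart.

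The synaptic genes Homer1 and Nptx2 were lower in untreated R6/2 mice than in untreated wild type mice. Homer1 read 34.1, 30.2 and 33.1 in the treated R6/2 arrays, 23.0, 19.0, 6.2 and 25.3 in the untreated R6/2 arrays, 31.1, 37.1 and 27.4 in the treated wild type arrays and 32.4, 39.5 and 48.4 in the untreated wild type arrays. Its 4 untreated R6/2 arrays were the 4 lowest of the 13, while the treated R6/2 arrays lay among the wild type arrays. The genotype difference was -1.29 ± 0.38 (SE, adjusted p = 0.0444) in untreated mice and 0.04 ± 0.41 (SE, adjusted p = 0.993) in treated mice.

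The Homer1 call was lost in 13 of 23 alternatives, among them 10 of the 13 in which 1 array was left out. It was also lost with no filter on dim signal (adjusted p = 0.104) and with only the groups compared (adjusted p = 0.117). The untreated R6/2 mean of 18.4 lay below the filter at 24.9, so the probe set passed through its higher signal in the other groups. The call held without untreated R6/2 arrays 1, 3 or 4 and was lost without any other array, where adjusted p reached 0.153. Array 3, at 6.2, sets much of the size: without it the difference was -0.83 (adjusted p = 0.0410), and without arrays 2 and 3 together it was -0.71 (adjusted p = 0.125).

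Nptx2 read 104.5, 60.5 and 83.5 in the treated R6/2 arrays, 55.6, 50.5, 47.1 and 59.3 in the untreated R6/2 arrays, 88.1, 72.9 and 97.6 in the treated wild type arrays and 85.6, 127.9 and 98.8 in the untreated wild type arrays. The 4 untreated R6/2 arrays were again the 4 lowest of the 13. Its genotype difference was -0.96 ± 0.19 (SE, adjusted p = 0.0109) in untreated mice and -0.08 ± 0.21 (SE, adjusted p = 0.976) in treated mice. In untreated mice it was -0.84 (adjusted p = 0.0807) without untreated R6/2 arrays 2 and 3, and -0.80 (adjusted p = 0.0637) without untreated wild type array 2. Averaged over treatment, Nptx2 was -0.52 ± 0.14 (SE, adjusted p = 0.0416), which lost its call in 11 of 23 alternatives, with an adjusted p of up to 0.118. These were the fits without 1 array, which was treated R6/2 array 2 or 3, untreated R6/2 array 2 or 3, treated wild type array 1 or 3, or untreated wild type array 2 or 3, and those with array weights, with no filter on dim signal, and without untreated R6/2 arrays 2 and 3. Homer1 averaged -0.63 ± 0.28 (SE, adjusted p = 0.191), and -0.34 (adjusted p = 0.244) without untreated R6/2 arrays 2 and 3.

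Bdnf did not pass the test in any comparison. It read 171.7, 140.2 and 137.6 in the treated R6/2 arrays, 151.8, 262.1, 259.7 and 147.6 in the untreated R6/2 arrays, 257.9, 218.2 and 193.8 in the treated wild type arrays and 184.0, 173.9 and 184.4 in the untreated wild type arrays. Treated R6/2 arrays lay below every wild type array. The untreated R6/2 arrays fell into a low pair and a high pair, and the high pair is arrays 2 and 3, which stand apart on the first principal component. The untreated R6/2 mean was 205 ± 64.2 (SD, n = 4), against 181 ± 5.95 (SD, n = 3) in untreated wild type mice, a log2 difference of 0.13 ± 0.20 (SE, adjusted p = 0.699, 95% interval -0.30 to 0.56). Without arrays 2 and 3 the difference was -0.27 (adjusted p = 0.327).

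In treated mice Bdnf averaged 149.8 ± 19.0 (SD, n = 3) in R6/2 and 223 ± 32.4 (SD, n = 3) in wild type arrays, a difference of -0.57 ± 0.22 (SE, adjusted p = 0.380, 95% interval -1.03 to -0.11). With untreated R6/2 arrays 2 and 3 left out, the same difference had an adjusted p of 0.0451. Those arrays do not enter the difference itself, but they do enter the spread that all groups share and the adjustment over all probe sets. Which of these moved the adjusted p was not tested. The difference averaged over treatment was -0.22 ± 0.15 (SE, adjusted p = 0.385) with all arrays and -0.42 (adjusted p = 0.0233) without arrays 2 and 3. Arrays 2 and 3 stood apart in these same data, so neither adjusted p without them is independent of that choice.

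Counted together, 4 of the 5 probe sets tested were lower in untreated R6/2 mice and 0 were higher, beside 6.41% of all probe sets tested that were lower, 5.49% that were higher and 11.9% that passed in either direction. In treated mice 2 were lower, beside 0.711% of all probe sets, or 0.792% in either direction. On average over treatment 3 were lower, beside 4.04% of all, or 6.61% in either direction. Groups that did not overlap, with R6/2 below wild type, were seen for 4 of 5 in untreated mice (12.3% of all probe sets) and for 3 of 5 in treated mice (8.17% of all). The median difference over the 5 was -0.87 in untreated mice, against 0.04 over all probe sets tested, and -0.57 in treated mice, against 0.03 over all. The count of 4 in untreated mice includes Homer1, whose call was lost in 13 of 23 alternatives.

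**Figure D2:**
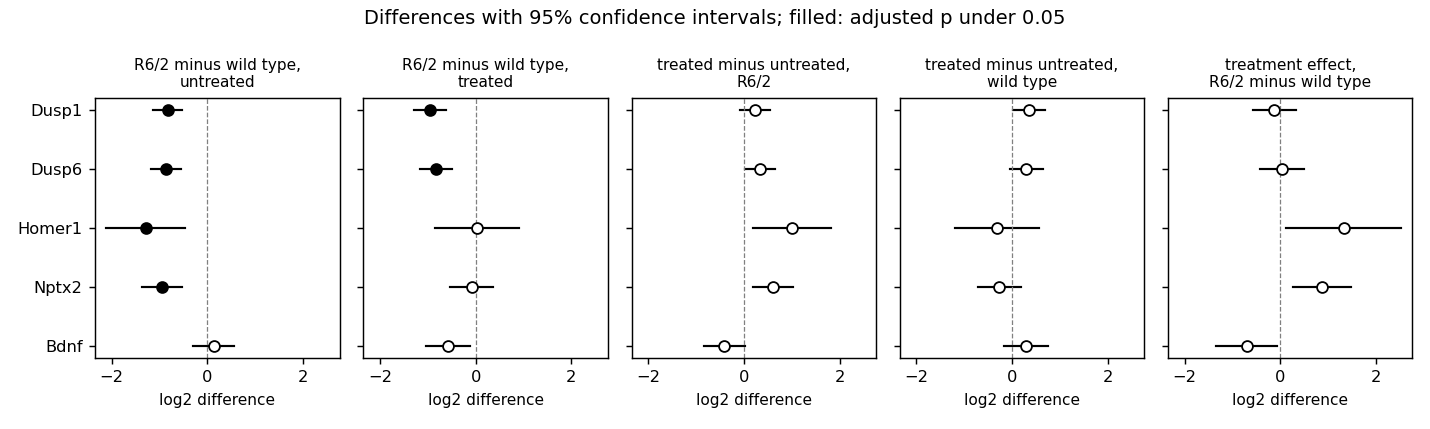
Log2 differences of the 5 probe sets in the genotype, treatment and interaction comparisons, with 95% intervals from limma and filled points where the adjusted p is under 0.05. Dusp1 and Dusp6 lie below 0 in both genotype comparisons, Homer1 and Nptx2 below 0 in untreated mice and near 0 in treated mice, and no interval for treatment or interaction belongs to a difference with an adjusted p under 0.05.

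The triple treatment gave no difference that passed the test, for these genes or for any other. In R6/2 mice limma called 0 of 7453 probe sets, and 16.9% had an unadjusted p under 0.05. The treatment difference in R6/2 mice was 1.00 ± 0.38 (SE, adjusted p = 0.254, 95% interval 0.18 to 1.82) for Homer1 and 0.61 ± 0.19 (SE, adjusted p = 0.247, 95% interval 0.20 to 1.03) for Nptx2. For both, the treated arrays lay above all untreated arrays, which holds for 4.94% of all probe sets. Dusp6 had 0.34 ± 0.15 (SE, adjusted p = 0.272), Dusp1 0.23 ± 0.15 (SE, adjusted p = 0.405) and Bdnf -0.41 ± 0.20 (SE, adjusted p = 0.308). Without untreated R6/2 arrays 2 and 3, Homer1 stood at 0.43, Nptx2 at 0.49, Dusp1 at 0.37 and Bdnf at -0.0060.

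In wild type mice limma also called 0 of 7453 probe sets for treatment, with 10.3% at an unadjusted p under 0.05. Dusp1 had 0.35 ± 0.16 (SE, adjusted p = 0.452), Dusp6 0.30 ± 0.16 (SE, adjusted p = 0.525) and Bdnf 0.30 ± 0.22 (SE, adjusted p = 0.668). Treated and untreated arrays did not overlap for Dusp6 and Bdnf, both with the treated arrays above, as for 11.4% of all probe sets. Homer1 had -0.32 ± 0.41 (SE, adjusted p = 0.829) and Nptx2 -0.26 ± 0.21 (SE, adjusted p = 0.696), opposite in sign to their values in R6/2 mice. Averaged over genotype the phosphatases had 0.29 ± 0.11 (SE, Dusp1, adjusted p = 0.308) and 0.32 ± 0.11 (SE, Dusp6, adjusted p = 0.294), where 0 probe sets passed and 12.6% had an unadjusted p under 0.05.

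Whether treatment acted differently in the 2 genotypes was tested directly as an interaction, and 0 of 7453 probe sets passed, with 13.5% at an unadjusted p under 0.05. The interaction was 0.87 ± 0.28 (SE, unadjusted p = 0.0080, adjusted p = 0.315) for Nptx2. It was 1.33 ± 0.56 (SE, unadjusted p = 0.0328, adjusted p = 0.331) for Homer1 and -0.70 ± 0.30 (SE, unadjusted p = 0.0317, adjusted p = 0.331) for Bdnf. Dusp1 and Dusp6 had -0.12 ± 0.21 and 0.04 ± 0.22 (SE, adjusted p = 0.810 and 0.942). Without untreated R6/2 arrays 2 and 3 the interaction was 0.76 for Nptx2 (adjusted p = 0.523), 0.75 for Homer1 (adjusted p = 0.531) and -0.30 for Bdnf (adjusted p = 0.676). So the genotype difference of Homer1 and Nptx2 passed in untreated and not in treated mice, but a change of that difference with treatment did not pass correction. The genotype comparison in untreated mice, the treatment comparison in R6/2 mice and the interaction share the untreated R6/2 arrays, so their values for a gene are not independent.

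Each array was also set against the range of the 3 untreated wild type arrays. Of all 7453 probe sets tested, 27.3% to 39.2% lay below that range in an R6/2 or treated wild type array and 30.0% to 39.5% above it, so a single reading outside it is common. Untreated R6/2 arrays 1 and 4 had all 5 genes below that range, and arrays 2 and 3 had 4 below it and Bdnf above it. Treated R6/2 array 2 had all 5 below, array 3 had 4 below with Homer1 inside the range, and array 1 had 3 below with Homer1 and Nptx2 inside. The treated wild type arrays had Dusp6 and Bdnf above the range in 3 of 3 and Dusp1 above it in 2 of 3. Each of them also had 1 gene below the range, Homer1 in arrays 1 and 3 and Nptx2 in array 2. Dusp1 and Dusp6 were below the range in 7 of 7 R6/2 arrays, and Bdnf was below it in 5 and above it in the other two.

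**Figure D3:**
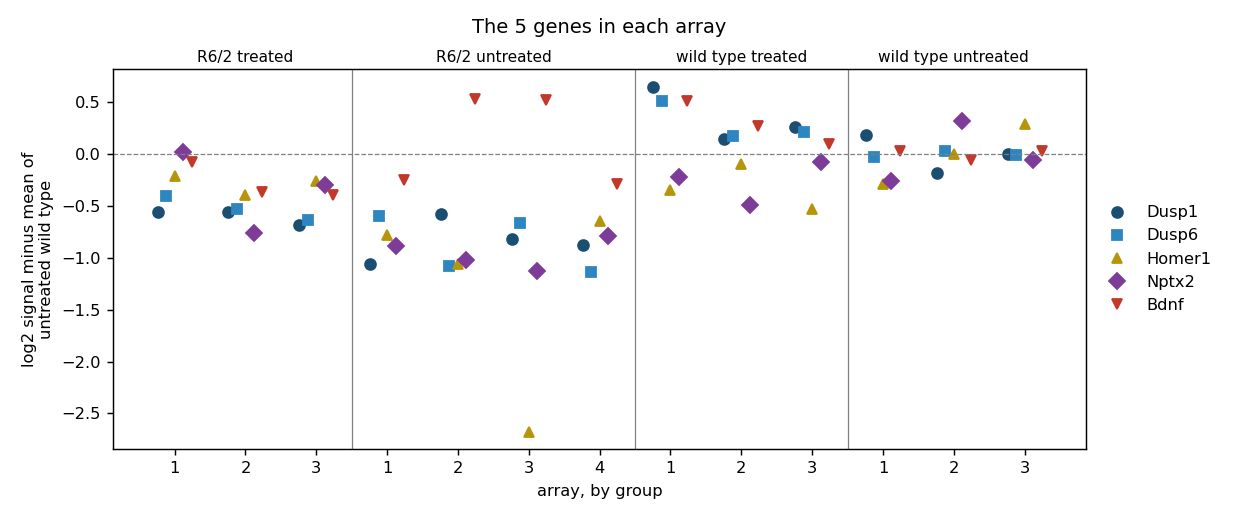
Log2 signal of the 5 probe sets in each of the 13 arrays relative to the untreated wild type mean, 1 marker per gene and array, with the groups in the order treated R6/2, untreated R6/2, treated wild type and untreated wild type. Dusp1 and Dusp6 lie below 0 in 7 of 7 R6/2 arrays, Homer1 lies lowest in untreated R6/2 array 3, and Bdnf lies above 0 in untreated R6/2 arrays 2 and 3.

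The second probe sets of Dusp6 and Homer1 lay below the filter and were tested only in a fit without it, where p-values were adjusted over 12422 probe sets. Homer1 104498_at read 4.1, 9.9 and 11.2 in the treated R6/2 arrays, 1.6, 2.3, 1.3 and 19.8 in the untreated R6/2 arrays, 15.9, 27.8 and 16.5 in the treated wild type arrays and 19.3, 22.6 and 13.9 in the untreated wild type arrays. Of its 4 untreated R6/2 readings 3 lay at or below the floor of 3.1, and the other lay inside the wild type range. Since those 3 readings were set to the floor, no size is given for the genotype difference in untreated mice, which had an adjusted p of 0.118. In treated mice it was -1.33 ± 0.69 (SE, adjusted p = 0.665), where the bright Homer1 probe set had 0.04. The treated R6/2 readings of 104498_at lay below all its treated wild type readings, as for 8.17% of the probe sets that passed the filter. Those of the bright probe set overlapped. The statements on Homer1 rest on the bright probe set.

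Dusp6 161536_r_at read 4.7, 4.0 and 4.4 in the treated R6/2 arrays, 8.4, 5.6, 7.7 and 12 in the untreated R6/2 arrays, 7.0, 9.5 and 9.1 in the treated wild type arrays and 3.4, 5.6 and 5.4 in the untreated wild type arrays. Its difference in untreated mice was 0.79 ± 0.25 (SE, adjusted p = 0.099), opposite in sign to that of 93285_at, and in treated mice -0.96 ± 0.27 (SE, adjusted p = 0.256). Its interaction was -1.75 ± 0.37 (SE, unadjusted p = 0.0007, adjusted p = 0.260), against 0.04 for 93285_at. The signs of the 2 Dusp6 probe sets matched in treated mice, for treatment in wild type mice and for the averaged genotype difference. That averaged difference was near 0 for 161536_r_at, at -0.08 ± 0.18 (SE, adjusted p = 0.871), against -0.85 for 93285_at. The signs were opposite in untreated mice, in the interaction and for treatment averaged over genotype. Signs were also opposite for treatment in R6/2 mice, at -0.90 (adjusted p = 0.338) for 161536_r_at and 0.34 for 93285_at. The statements on Dusp6 rest on the bright probe set.

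**Figure D4:**
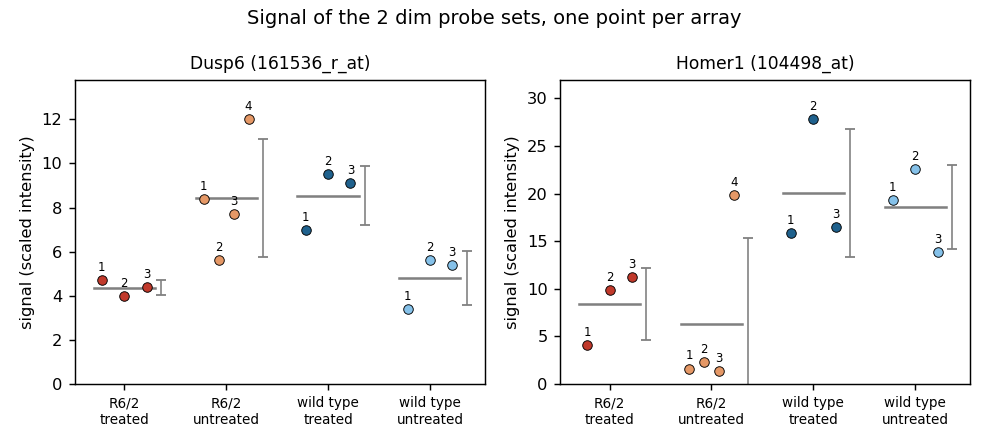
Signal of the dim Dusp6 and Homer1 probe sets, in the authors' scaled intensity on a linear axis from 0, by group and array, with group means as grey lines and ± 1 SD as grey bars. For Homer1, 3 of the 4 untreated R6/2 arrays lie at or below 2.3, and array 4 at 19.8.

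The probe sets with the most similar profiles were found by the mean absolute difference between log2 profiles over the 13 arrays, each centred on its own mean, among 6739 probe sets of single genes. For Dusp1 these were Egr1 (0.167), Klf10 (0.170) and Dusp6 (0.172), and for Dusp6 they were Rgs16 (0.146), Baiap2 (0.158) and Sstr2 (0.169), with Dusp1 next at 0.172. Each phosphatase was thus among the 4 nearest of the other. Their own mean absolute deviations were 0.452 for Dusp1 and 0.433 for Dusp6. Homer1 came closest to Nsmf (0.220), Rhog (0.230) and Rabggta (0.230), Nptx2 to Pbx2 (0.161), Smarcd1 (0.170) and Padi2 (0.178), and Bdnf to Nacc2 (0.123), Tbce (0.126) and Eps8 (0.133). Homer1, Nptx2 and Bdnf deviated from their own means by 0.463, 0.381 and 0.266, and no other gene of the 5 was among their 3 nearest. These are descriptions over arrays that share groups and scaling.

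Other genes of the same routes were counted from lists, each gene by its brightest probe set. Their counts stand beside the shares over all probe sets given above, in untreated mice 6.41% lower and 5.49% higher, and in treated mice 0.711% lower. Early transcription factors, which firing induces in the same way, were lower in R6/2 mice for 6 of 18 tested genes untreated and 5 of 18 treated, with 0 higher in either. Bhlhe40 read 115 ± 12.2 (SD, n = 3) in treated R6/2, 83.3 ± 10.2 (SD, n = 4) in untreated R6/2, 289 ± 39.2 (SD, n = 3) in treated wild type and 255 ± 22.1 (SD, n = 3) in untreated wild type mice. The difference for Egr1 was -1.02 ± 0.14 (SE, adjusted p = 0.0012) in untreated and -0.93 ± 0.15 (SE, adjusted p = 0.0082) in treated mice, and for Egr2 it was -1.96 ± 0.19 and -2.0 ± 0.20 (SE). Nr4a1 had -1.18 ± 0.15 and -0.94 ± 0.16 (SE). Junb was not called in untreated mice by its brightest probe set. Its other probe set gave -2.58 ± 0.34 (SE, adjusted p = 0.0007) in untreated and -0.89 ± 0.36 (SE, adjusted p = 0.439) in treated mice.

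Of 18 further induced effectors, 5 were lower in untreated R6/2 mice (Per1, Rgs4, Sgk1, Ier2 and Plk2), 2 were lower in treated R6/2 mice (Per1 and Sgk1) and 0 were higher. Per1, a clock repressor that is also an early gene, had -1.55 ± 0.17 (SE) in untreated and -1.11 ± 0.18 (SE) in treated mice. Rgs4, which shortens G protein signalling, had -1.96 ± 0.27 (SE, adjusted p = 0.0012) in untreated mice. Sgk1, a kinase induced by glucocorticoids as well as activity, had -0.69 ± 0.13 (SE) in untreated and -0.77 ± 0.14 (SE) in treated mice. The medians of the effector list were -0.36 and -0.39, and those of the transcription factor list -0.30 and -0.46.

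None of the 6 other dual-specificity phosphatases tested, Dusp2, Dusp8, Dusp11, Dusp12, Dusp16 and Dusp19, passed in any comparison. In limma 1 of them, Dusp16, had an unadjusted p under 0.05 in a genotype comparison, and their medians were 0.06 in untreated and 0.13 in treated mice. Dusp16, which acts on JNK and p38, had 0.16 (adjusted p = 0.607) in untreated and 0.70 (adjusted p = 0.176) in treated mice. A count of 0 in a list of this size is near the background share. In the MAP kinase cascade 2 of 18 genes were lower in untreated R6/2 mice, which is not read as a result about the cascade either. These were Mapk9, the kinase JNK2, at -1.19 ± 0.37 (SE, adjusted p = 0.0479) and Rasgrp1, an activator of Ras, at -0.86 ± 0.26 (SE, adjusted p = 0.0453). None passed in treated mice, and neither of the 2 was called without untreated R6/2 arrays 2 and 3.

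The counts of the next 3 lists, of 1 to 3 genes each, are likewise not read as results about the lists. Among 9 partners of Homer and its family, Dlg4, the scaffold PSD-95, was lower in untreated R6/2 mice at -0.85 ± 0.20 (SE, adjusted p = 0.0197), and none passed in treated mice. The partner Plcb1 was not called by its brightest probe set. Its other probe sets were lower in untreated R6/2 mice, at -1.08 ± 0.22 (SE, adjusted p = 0.0109) and -0.90 ± 0.24 (SE, adjusted p = 0.0280). In treated mice they had 0.01 and -0.34 without a call. Homer2 averaged -0.35 (adjusted p = 0.062) over treatment, and Homer3 had 0.01 in untreated and 0.37 in treated mice without a call. Among 7 pentraxins and AMPA receptor partners, Gria3, an AMPA receptor subunit, was lower in untreated R6/2 mice at -1.19 ± 0.25 (SE, adjusted p = 0.0117), and none passed in treated mice. The relative Nptx1 had -0.59 (adjusted p = 0.078) in untreated mice and -0.16 in treated mice. The 16 tested genes of BDNF transport, processing and signalling held 1 higher and 2 lower in untreated R6/2 mice. Pik3ca, the catalytic subunit of phosphoinositide 3-kinase, was higher at 1.05 ± 0.26 (SE, adjusted p = 0.0209), though its other probe set gave 0.06, while Kif5c, a kinesin motor, had -1.0 and Pik3r1, a regulatory subunit, -0.79. Ntrk3, the neurotrophin-3 receptor, had -0.62 (adjusted p = 0.149) in untreated and 0.15 in treated mice, and the BDNF receptor gene Ntrk2 lay below the filter.

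Of 22 genes that sense activity or belong to CREB, SRF and MEF2, 3 were lower and 1 was higher in untreated R6/2 mice and none passed in treated mice. These counts, too, are not read as a result about the list. Camk2a, the alpha subunit of calcium and calmodulin-dependent kinase II, had -2.91 ± 0.54 (SE, adjusted p = 0.0069), with its other probe set at -3.03. It read 8.4 to 58.7 in the untreated R6/2 arrays, against 105.8 to 189.1 in the untreated wild type arrays. Mef2c, a transcription factor of excitatory neurons, had -0.72 ± 0.14 (SE, adjusted p = 0.0101), Prkaca was lower at -0.84 and Calm2 higher at 0.75. Without untreated R6/2 arrays 2 and 3 the lower calls were 2 of this list, 3 of the effectors and 6 of the transcription factors, and the other lists had 0. No list had a higher call then, so those of Pik3ca and Calm2 were lost. No gene of any list passed for treatment or interaction.

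**Figure D5:**
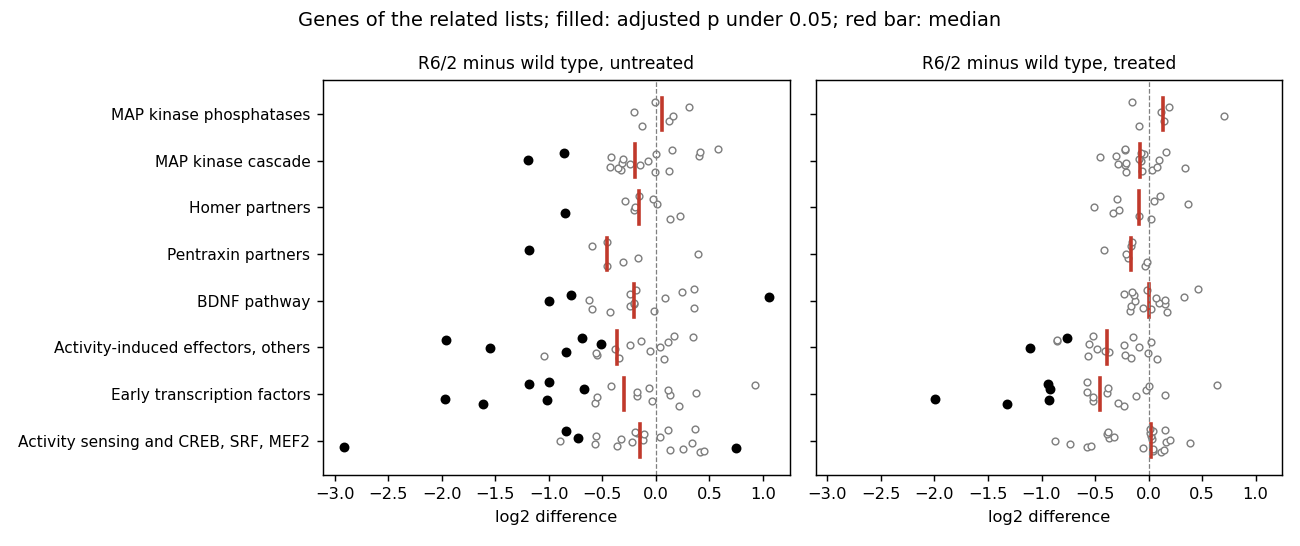
Log2 genotype differences (R6/2 minus wild type) of the genes on each pathway list in untreated and treated mice, 1 point per gene, with genes past an adjusted p of 0.05 filled and red bars at the list medians. The early transcription factors and further effectors hold points past the threshold in both comparisons, the 6 other phosphatases (a list without Dusp1 and Dusp6) in neither.

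Markers of several cell types also differed with genotype. Summed signal of cortical and hippocampal excitatory neuron markers (9 measured of 11) was 882.6 to 1244.8 in untreated R6/2, against 1840.2 to 2066.4 in untreated wild type arrays, and 1094.4 to 1351.8 in treated R6/2, against 1622.7 to 1977.3 in treated wild type arrays. Striatal projection neuron markers (8 of 13) summed to 1570.8 to 1859.1 in untreated R6/2, against 3058.8 to 3569.4 in untreated wild type arrays, and to 1509.0 to 1628.9 in treated R6/2, against 3284.4 to 3728.3 in treated wild type arrays. Interneuron markers (9 of 9) summed to 3535.7 to 3937.4 in untreated R6/2, against 5330.8 to 5791.6 in untreated wild type arrays, and to 3780.6 to 4048.4 in treated R6/2, against 5357.5 to 5690.6 in treated wild type arrays. Oligodendrocyte markers (8 of 11) summed to 2384.2 to 3061.5 in untreated R6/2, against 4046.3 to 4469.3 in untreated wild type arrays, and to 2612.1 to 3604.0 in treated R6/2, against 3962.4 to 4670.1 in treated wild type arrays. The groups of these 4 lists overlapped in neither comparison. General neuron markers (14 of 16) summed to 11804.0 to 12735.8 in untreated R6/2, against 14114.8 to 14696.4 in untreated wild type arrays, and the treated groups overlapped, at 12452.5 to 13501.8 in treated R6/2, against 13192.8 to 14336.2 in treated wild type arrays.

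Astrocyte markers (7 of 9) summed to 2867.2 to 3249.6 in treated R6/2, against 3438.0 to 3763.8 in treated wild type arrays, and overlapped in untreated mice. Bright probe sets weigh most in such sums. The median log2 difference of the astrocyte markers was 0.0043 in treated and 0.18 in untreated mice, with 3 of 7 below 0 in each. Red blood cell markers (4 of 6) summed to 928.1 to 1896.4 in untreated R6/2, against 2002.8 to 3552.2 in untreated wild type arrays, and overlapped in treated mice. Microglial markers (11 of 11) overlapped in untreated mice and summed to 1339.4 to 1401.9 in treated R6/2, against 1215.6 to 1287.3 in treated wild type arrays. Their median log2 difference was 0.014 in treated mice, with 3 of 8 tested markers below 0. In untreated mice that median was -0.23, with 5 of 8 below 0. Endothelial markers (10 of 10) overlapped in untreated mice and summed to 600.7 to 638.7 in treated R6/2, against 507.8 to 587.3 in treated wild type arrays. Choroid plexus markers (3 of 5) overlapped in both. Without untreated R6/2 arrays 2 and 3, the untreated R6/2 sums were 1186.5 to 1244.8 for excitatory, 1570.8 to 1598.7 for striatal, 3932.5 to 3937.4 for interneuron and 2809.3 to 2864.0 for oligodendrocyte markers. In untreated mice 4 of 7 excitatory, 4 of 7 striatal, 5 of 9 interneuron, 4 of 7 oligodendrocyte, 2 of 7 astrocyte, 1 of 3 red blood cell and 4 of 14 general neuron markers were lower, and 1 of 8 microglial markers was higher. In treated mice 1 of 7 excitatory, 4 of 7 striatal and 3 of 9 interneuron markers were lower, and no marker of the other lists passed. Over all probe sets tested, 6.41% were lower and 5.49% higher in untreated mice, and 0.711% were lower in treated mice. Counts of 1 or 2 markers are not read as results about their lists. Markers of neurons, astrocytes, oligodendrocytes and microglia were read in every array. Single markers lay at or below the floor in some arrays: Ptprc in 7, and Cnp and Rgs9 in 3 each. The part of these markers in the differences of Dusp1, Dusp6, Homer1 and Nptx2 was not tested.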

How the data were processed

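Total RNA of mouse whole brain hemispheres was measured on 13 arrays. The authors deposited linear intensities, scaled so that each array's mean after trimming 2% at each end is about 100, judged from the values. The software is not given in the sources used here. Array medians lay within 6.73% of their mean, so no further normalization was applied. Values under 3.1, the 10th percentile, were set to 3.1 and log2 was taken. After 66 controls were left out, 7453 of 12422 probe sets had a mean log2 at or above the 40th percentile and were tested. Genes came from the platform's annotation, which can be old and gives 1 gene for 10833 probe sets, several for 396 and none for 1193. limma 3.58.1 (R 4.3.3) fitted group means to all 13 arrays, with variances moderated along the intensity, Benjamini-Hochberg adjustment over the tested probe sets and a threshold of 0.05. The script was tested on simulated data.

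The members and lists were chosen with earlier results of these data known. All 5 members are named. Of each list, some or all of the 4 genes with the smallest p in the averaged genotype comparison are named, and so is the members' family. Other genes named were chosen after their values were seen. Alternatives covered the floor, filter, normalization, variance trend, array weights, the samples fitted and arrays left out. Leaving out the 2 arrays of 1 lot number was added after seeing the data.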

Additional observations from a re-analysis of the deposited data

Results flagged for a closer look

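Of 7 probe-set readings tested for a stray array in the 4 untreated R6/2 arrays, 1 stood out. The dim Homer1 probe set 104498_at read 19.8 in array 4 and 1.3 to 2.3 in the others, so the gap took 0.946 of the group's range, above Dixon's 95% critical value of 0.829 for 4 arrays. Chance flags about 1 in 20 such groups. The bright Homer1 probe set read 25.3 in the same array, against 6.2 to 23.0 in the others.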

How the results depend on the processing

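Dusp1 and Dusp6 kept their direction and their call in untreated mice and on average over treatment in every alternative run. No treatment or interaction difference of the 5 genes passed in any alternative. Of 818 recomputed log2 differences, 761 kept direction and side of the threshold, 33 lost their call, 2 gained one and 22 turned sign, all of these from values of at most 0.13. The causes of these shifts were not tested. Homer1 could not be tested with the filter at the 60th percentile, and fits of only the groups compared exist for the simple comparisons alone.

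Calls among the 5 probe sets in treated mice numbered 2, fell to 0 without the arrays of 1 lot number, came to 3 without untreated R6/2 arrays 2 and 3 (with Bdnf) and ranged over 1 to 2 with 1 array left out. In untreated mice they numbered 4, with 2 when untreated R6/2 arrays 2 and 3 were left out and 2 to 4 with 1 array left out. On average over treatment they numbered 3, and 2 to 3 with 1 array left out.

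Over all probe sets the averaged genotype effect gave 493 calls, 932 with array weights and 263 to 704 with 1 array left out. In treated mice there were 59, with 208 under array weights, 16 without the arrays of 1 lot number, 119 without untreated R6/2 arrays 2 and 3, and 20 to 95 with 1 array left out. In untreated mice there were 887, with 512 without the filter, 243 with only the groups compared, 163 without untreated R6/2 arrays 2 and 3, and 157 to 1308 with 1 array left out. For treatment the counts were 0: averaged, array weights gave 17 and 1 array left out 0 to 43; in R6/2 mice, no filter gave 1, leaving out untreated R6/2 arrays 2 and 3 gave 1 and 1 array left out 0 to 116, the highest without untreated R6/2 array 1. In wild type mice array weights gave 120, a floor at 20 gave 3, no filter 2, no intensity trend 1, only the groups compared 9, leaving out untreated R6/2 arrays 2 and 3 gave 8 and 1 array left out 0 to 6.

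Pathway-list genes past the threshold numbered 7 in treated mice, 3 without the arrays of 1 lot number and 2 to 9 with 1 array left out. In untreated mice they numbered 22, with 14 for only the groups compared, 11 without untreated R6/2 arrays 2 and 3 and 10 to 31 with 1 array left out. Averaged they numbered 21, and 14 to 23 with 1 array left out. For treatment they were 0 in R6/2 mice (0 to 3 with 1 array left out) and 0 in wild type mice (1 with array weights).

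Signs turned as follows. Without untreated R6/2 arrays 2 and 3, Bdnf was -0.27 in untreated mice and 0.14 for averaged treatment, and the Dusp1 interaction was 0.014. With array weights, Bdnf for averaged treatment was 8.5e-05, and in treated mice Homer1 was -0.035 and Nptx2 0.12. Without the arrays of 1 lot number, the Dusp6 interaction was -0.11 and Homer1 in treated mice -0.00015. With 1 array left out, Bdnf in untreated mice ranged from -0.0067 to 0.27 and for averaged treatment from -0.13 to 0.012, the Dusp1 interaction from -0.23 to 0.028, the Dusp6 interaction from -0.046 to 0.15, and in treated mice Homer1 from -0.067 to 0.15 and Nptx2 from -0.27 to 0.13.

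No paired analysis was possible because the labels give no replicate numbers that link arrays of different groups. Groups of 3 or 4 arrays, unstated animals and unstated batches limit the precision, and dim probe sets near the floor have no order among themselves.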
